A study of Oryza sativa with 12 samples.

Results

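In rice leaves, 150 probe sets stood far higher on 3 well-watered arrays than on the other 9 arrays of the study. They were chosen by that difference. The 3 arrays are osnox2 control replicates 1 and 2 together with WT control replicate 1. A probe set was considered if 3 or more of its 12 values exceeded the median of their array, and its gap was its lowest log2 value among the 3 arrays minus its highest among the other 9. The 150 largest gaps of 32012 probe sets were kept, after LHY, PRR37, PRR73 and genes with names starting PIP, TIP, CHL or POR had been left out. LHY was the only probe set left out by name whose gap reached that of a member. Because the levels on the 3 and the 9 arrays chose the members, those levels are given as a description with no test.

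Gene expression was measured on 12 Affymetrix arrays, 3 in each of 4 groups. WT plants were the japonica cultivar Dongjin, and osnox2 was a T-DNA insertion mutant, a line in which a piece of foreign DNA interrupts a gene. By its title the study concerns OsRbohA, a plasma membrane NADPH oxidase, an enzyme that makes superoxide outside the cell. Both genotypes were sampled under control conditions, at day 0 and a soil moisture of 47.3%, and under drought, at day 15 and a soil moisture of 8.5%. The sampled tissue was the youngest fully expanded leaf of plants aged 2.5 months, and osnox2 and WT plants shared pots. All control leaves were from day 0 and all drought leaves from day 15, so drought and day cannot be told apart, and 1 mutant line was used. Replicates are called biological in the labels without saying whether each was a separate plant. The hour of harvest is not given in the labels. Values are log2 MAS5 signals, the output of Affymetrix's summary of a probe set, with array medians of 5.08 to 5.43 over all probe sets. Precision is limited by how few arrays each group has. In leaf RNA, fewer cells of a type and less RNA per cell cannot be told apart.

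The circadian clock is a loop of transcription factors that keeps daily time. LHY, with its relative CCA1 in Arabidopsis, is made around dawn and represses evening genes such as TOC1 (PRR1 in rice) and PCL1, while the PRR proteins follow each other through the day and repress LHY. In leaves the clock and light together set daily rhythms in photosynthesis, starch metabolism, pigment synthesis and ion transport.

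The clock genes of the list used here were not members. LHY read 13.51 and 13.57 on osnox2 control replicates 1 and 2 and 13.79 on WT control replicate 1, against 7.31 to 8.99 on the other 9 arrays. PCL1 read 5.59 to 6.16 against 14.33 to 14.99. Both were therefore far apart on the same arrays that chose the members, LHY in the same direction as the members and PCL1 in the opposite one. The 3 arrays had been grouped as control arrays with a morning-like clock, with earlier results of these data known. The clock readings are thus a description and no separate support for the members. Of the 9 probe sets of the 7 measured clock genes, 4 had all 3 arrays above the other 9 and 3 had all 3 below. Besides LHY, those above were both of PRR73, with gaps of 0.86 and 0.66, and a PRR37 probe set, at 0.04. Besides PCL1, those below were PRR1, at 9.13 to 9.34 against 11.92 to 12.67, and GI, at 13.71 to 13.83 against 13.96 to 14.32. For PRR95 and the other PRR37 probe set the 3 arrays overlapped the other 9. Markers of leaf mesophyll were bright throughout: the 15 probe sets of 8 such genes, of which PSAG is a member, had medians of 13.11 to 15.10 per array. They too were higher on the 3 arrays, with a median of 15.06 against 13.37 on the other 9. The 4 genes listed as root markers, by how names start, were IRT1, NAS3, NIP2-1 and NIP2-2. Whether their transcripts are particular to root was not tested. These 4 genes had medians of 10.01 on the 3 arrays and 9.09 on the other 9. The 4 probe sets of 3 seed storage protein genes had 6.76 and 7.06. The part of these markers in the gaps was not tested.

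Of the 150 members, 107 matched 1 gene in the annotation of assembly ASM3414082v1, 2 matched several and 41 matched none. The 107 belong to 95 genes, of which 20 have a name beyond a locus number. Members of 1 gene share their transcript: 7 genes had more than 1 member probe set, and LOC4333004 (chromosome 3, 15820267 to 15826000) had 5. No role is given here for genes known only by a locus number.

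The gaps ran from 2.36 to 7.13, with a median of 3.19, which is 9.15-fold between the lowest of the 3 arrays and the highest of the 9. A gap above 0 was found for 3023 of the 32012 probe sets (9.44%), and the opposite order for 4838 (15.1%). Of the members 82 had a gap over 3 and 24 a gap over 4. At the threshold the last members were LOC4344150, LOC4331141 and LOC4344470, with gaps of 2.37, 2.37 and 2.36. The next probe sets, left out, were those of LOC4326922, LOC4339685 and LOC4344160, at 2.35, 2.35 and 2.34, so the list ends within a continuous series of gaps and not at a break. Another probe set of LOC4339685 and another of LOC4344160 were members.

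**Figure D1:**
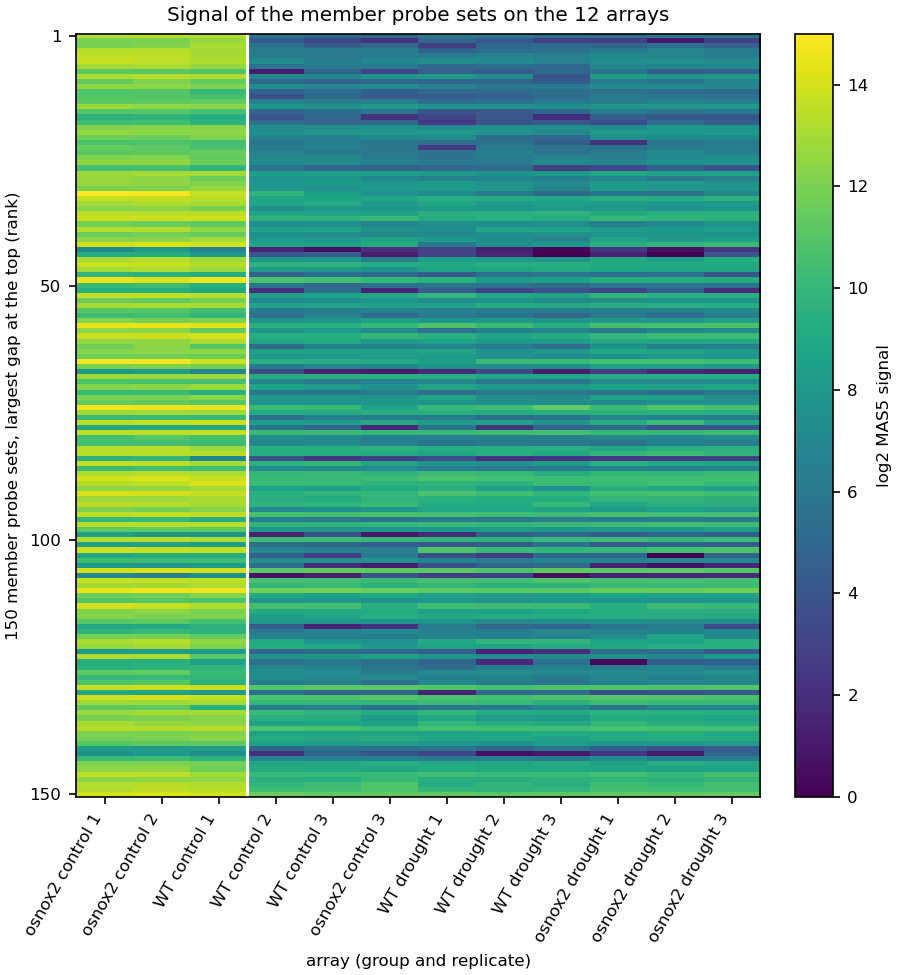
Log2 MAS5 signal (colour) of the 150 members (rows, largest gap at the top) on the 12 arrays (columns; the white line separates the 3 arrays on the left from the other 9). The rows are brighter on the 3 arrays at every rank, with array medians over the members of 12.16 to 12.35 on the left and 7.36 to 8.03 on the right, and some rows on the right are near the lowest signal.

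The median over the members was 12.23 and 12.35 on osnox2 control replicates 1 and 2 and 12.16 on WT control replicate 1. It was 7.77 on osnox2 control replicate 3 and 7.80 and 7.83 on WT control replicates 2 and 3. The 3 control arrays that were low thus read close to the drought arrays, at 7.36 to 7.80 in WT and 7.95 to 8.03 in osnox2, and far from the other control arrays of their own group.

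On the 9 arrays most members still gave signal. All 9 values lay above the array median for 110 members, all 9 lay below it for 10, and 30 were mixed, so 10 members passed the filter on low values through the 3 arrays alone. The members were high on both genotypes among the 3 arrays. Their values on WT control replicate 1 were the lowest of the 3 for 92 members, and the median difference of the osnox2 mean minus the WT array was 0.21, above 0 for 102 members. Over all 32012 probe sets that median was -0.02, and 48.2% were above 0. This sets 2 arrays against 1 and has no replicate check in WT. The same 3 arrays chose the members, so the difference is a description and no test of genotype.

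The largest gap was that of FRO1 (chromosome 4, 22671681 to 22676001), of the ferric reductase oxidase family, which reduces iron at membranes for uptake. It read 13.33, 13.46 and 13.32 on the 3 arrays, and on the other 9 the lowest, median and highest values were 5.06, 5.85 and 6.19. The 9 values were close to the array medians, so FRO1 was dim on the 9 arrays and bright on the 3. Other members for ion transport were MRS2-A, CAX1a and AMT1. MRS2-A (chromosome 3, 28160687 to 28167237), of a family of magnesium transporters, read 13.38 to 13.46 against 8.60, 9.45 and 9.67. CAX1a (chromosome 1, 21641509 to 21646776), a cation/proton exchanger of the kind that loads calcium into vacuoles, read up to 12.10 on the 3 arrays against 8.62, 8.88 and 9.50, with a gap of 2.49. AMT1 (chromosome 4, 26001246 to 26003360), an ammonium transporter, read 13.31 to 13.41 against 8.83, 9.34 and 10.31. In these 3 genes the 9 arrays were well above the array median, so the signal differed between a high and a higher level.

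Of carbohydrate genes, SWEET2B and GBSS1 were members. SWEET2B (chromosome 1, 29563766 to 29565557), a sugar transporter of the SWEET family, had the gaps of rank 2 and 3 through its 2 probe sets. The probe set of rank 2 read 11.98, 11.99 and 12.61 on the 3 arrays, against 1.04, 2.97 and 4.94 as the lowest, median and highest of the 9. All 9 values lay below the array medians, so this gap of 7.04 starts from dim signals and its size is uncertain. LOC4326922 (chromosome 1, 29558835 to 29562667), the probe set just outside the threshold, lies next to SWEET2B and read 11.40 to 11.96 against 7.73 to 9.05. GBSS1 (chromosome 6, 1922743 to 1927858), the Waxy starch synthase that makes amylose, read 9.94 to 10.48 against 4.97, 5.83 and 6.52. In Arabidopsis the transcript of the corresponding gene follows the clock. ALDP (chromosome 11, 3536774 to 3540499), a chloroplast fructose-bisphosphate aldolase of the Calvin cycle, read 12.50 to 13.35 against 7.59, 9.04 and 9.91.

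Pigment and photosystem genes made a further group of 4. PSY2 (chromosome 12, 27498298 to 27501395), phytoene synthase, the entry enzyme of carotenoid synthesis, read 12.97 to 13.63 against 7.54, 8.73 and 9.98. ALADH (chromosome 6, 30626211 to 30630508), the dehydratase that makes porphobilinogen on the way to chlorophyll and haem, read 12.41 to 13.06 against 8.63, 9.27 and 9.91. CAO (chromosome 10, 23174975 to 23178721), the oxygenase that makes chlorophyll b, read 13.65 to 14.16 against 10.11, 10.33 and 10.74. PSAG (chromosome 5, 2800481 to 2805617), a subunit of photosystem I, read 13.51 to 13.70 against 9.98, 10.15 and 10.43. Among the 9 arrays CAO and PSAG stayed within 1 log2 unit, while PSY2 varied by more than 2.

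The other named members were enzymes of glycosides and lipids and proteins of signalling. BGLU22, BGLU31 and sfr2, also named BGLU36, belong to the β-glucosidase family, which removes or transfers glucose on small molecules. BGLU22 (chromosome 5) read 13.50 to 13.92 against 7.76 to 10.33, BGLU31 (chromosome 9) 11.95 to 12.27 against 8.13 to 9.45, and sfr2 (chromosome 11), whose Arabidopsis counterpart remodels chloroplast membranes in freezing, 11.87 to 12.29 against 7.14 to 9.04. BIPP2C1 and PP2C39 are protein phosphatases of type 2C, CBL4 is a calcium sensor of the calcineurin B-like family, DSM3 is an inositol phosphate kinase, and LSD1 belongs to a zinc finger family that limits cell death in Arabidopsis. Their gaps were 3.76, 2.41, 2.43, 2.50 and 2.46. PLP2 had a gap of 2.67 but read 0.69 to 5.28 on the 9 arrays, below the array median on each.

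**Figure D2:**
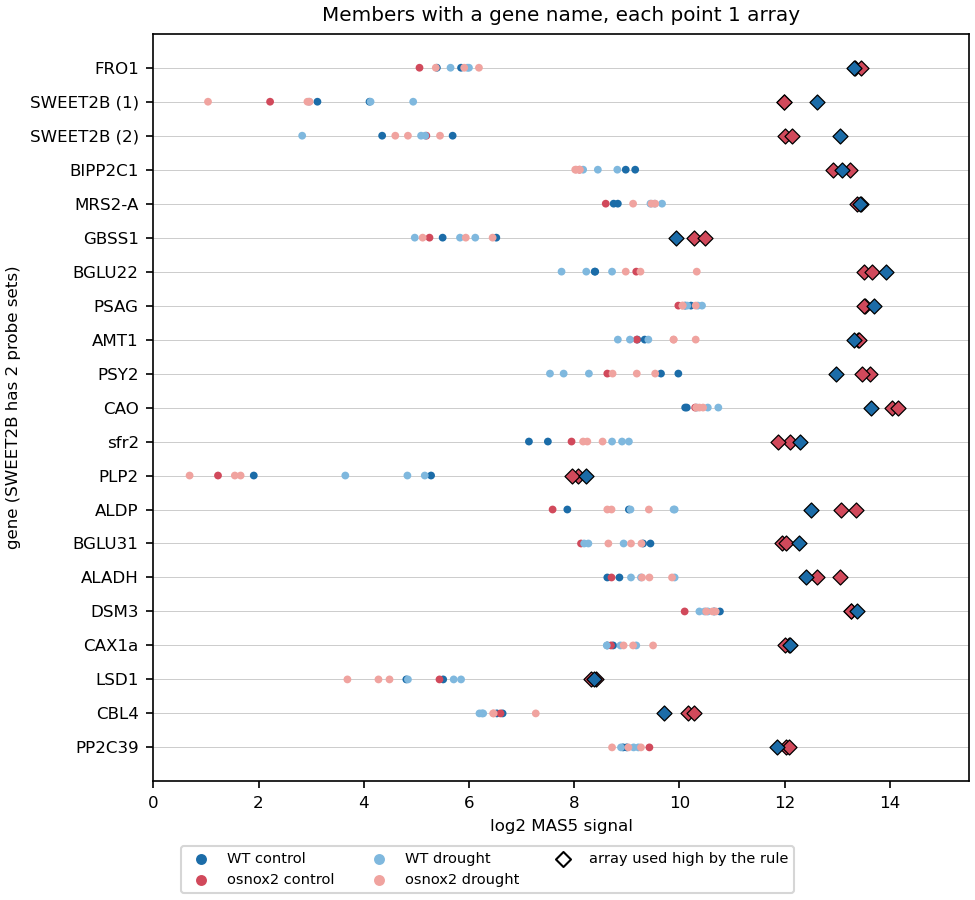
Log2 MAS5 signal (horizontal axis) of the 21 member probe sets with a gene name (rows), 1 point per array, coloured by group, with diamonds for the 3 arrays the rule set high. Diamonds of both genotypes lie together at the right, and the 9 other points range from a narrow cluster, as in CAO and PSAG, to a wide one, as in PLP2.

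The other members of large gap had no gene name. LOC4337941 (chromosome 5, 4268854 to 4273891) read 12.95 to 13.57 against 5.92 to 6.98, LOC4339759 (chromosome 5, 29411079 to 29413778) 12.62 to 13.15 against 4.94 to 7.15, LOC4326913 (chromosome 1, 10021160 to 10024720) 10.92 to 11.22 against 1.18 to 5.75, and LOC4328240 (chromosome 2, 2009505 to 2013482) 11.37 to 12.09 against 4.37 to 6.72. A further 3 of the 10 largest gaps, of 6.11, 5.58 and 4.81, belonged to probe sets that match no gene here. Member genes lay on all 12 chromosomes, with 17 of 95 on chromosome 1 and 2 on chromosome 2, where 14.9% and 12.1% of the genes measured lie. In 3 places 2 member genes lay within 50000 bases: LOC4323880 and LOC4325348 on chromosome 1, LOC4335739 and PP2C39 on chromosome 4, 1606 bases apart, and LOC4349429 and CAO on chromosome 10, 10073 bases apart. Whether their probe sets share targets was not tested.

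The gene lists were small and none was tested. Of all 32012 probe sets kept 150 were members, so 0 members in a list does not show a lack of them. Light harvesting and photosynthesis had 1 member gene of 9 measured (PSAG), carotenoid synthesis 1 of 5 (PSY2), starch and sugar 2 of 42 (GBSS1 and SWEET2B), kinases and phosphatases 2 of 125 (CBL4 and PP2C39) and transporters 1 of 70 (AMT1). The lists for transcription factors (102 genes), hormones (93), light signalling (6), flowering time (11), heat shock (22) and ribosomal proteins (25) had 0. Lists were filled by how names start, so the phosphatase BIPP2C1 and the transporters MRS2-A and CAX1a were in none. CBL4, a calcium sensor, was listed with the kinases and phosphatases. Of the starch and sugar probe sets 16 of 57 had all 3 arrays above the other 9 and 6 the opposite order, where 9.44% and 15.1% of all probe sets did. These counts were 25 and 28 of 150 for kinases and phosphatases, 12 and 11 of 87 for transporters, 10 and 13 of 127 for transcription factors and 12 and 15 of 103 for hormones. They were 7 and 0 of 16 for light harvesting and photosynthesis and 13 and 7 of 45 for scavenging of reactive oxygen species. Ribosomal proteins had 0 and 4 of 41.

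Other probe sets of the member genes give a second reading of the same RNA on the same arrays, and are described without a test since the genes were chosen on these arrays. There were 27 of them for 17 genes, 21 of which passed the filter. Of the 21, 18 had all 3 arrays above the other 9 and 12 had a gap over 1, with a median gap of 1.07. Both other probe sets of sfr2, at 1.49 and 2.03, and of ALDP, at 1.17 and 1.67, followed their member. The ALDP probe sets also show scale: one read 15.09 to 15.29 against 12.82 to 13.42. Some disagreed. The other probe set of BIPP2C1 read 14.95 to 15.32 against 14.92 to 15.22, with overlap, and that of LOC4331944 had a gap of -3.86. GBSS1 had gaps of 0.90, 0.31, 0.0 and -3.70 on its 4 others that passed the filter. The other probe set of PSAG was dim and had a gap of only 0.1, at 6.64 to 7.5 against 5.06 to 6.54. For LSD1 the member probe set was dim, at 8.32 to 8.41, and the 3 brighter ones had gaps of 0.85 to 1.07.

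**Figure D3:**
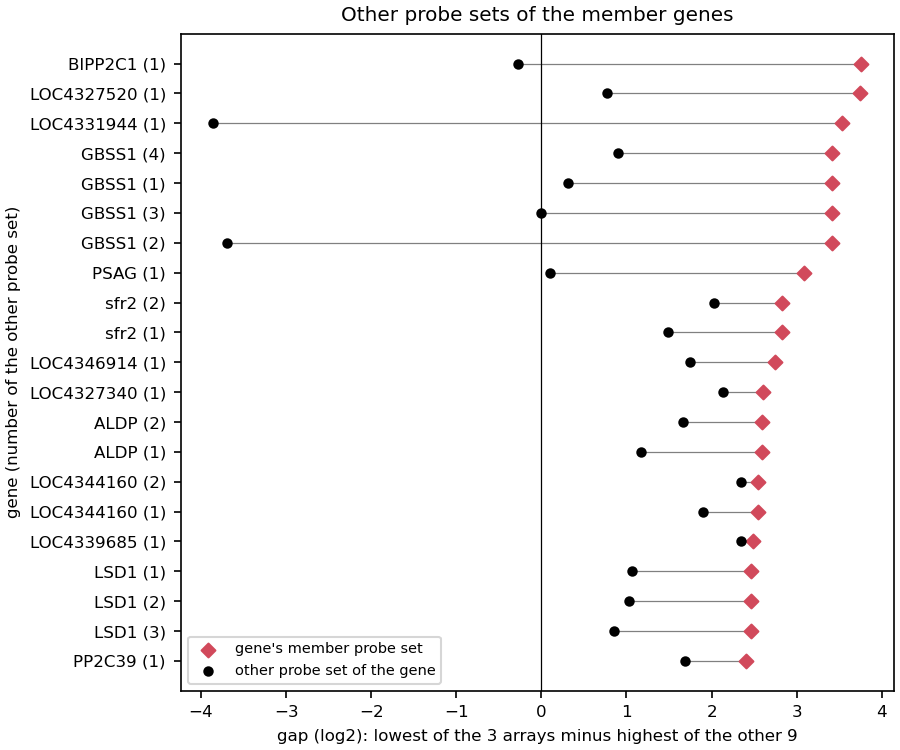
Gap in log2 units (horizontal axis) of the 21 other probe sets that passed the filter (black points, rows) and of the member probe set of the same gene (red diamonds, the largest where a gene has several). The black points lie above 0 for 18 of 21, and each lies left of its diamond, which the choice of the largest gaps fixes.

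The comparisons of the 4 groups were made among the 9 arrays that the rule did not set high. The rule used these 9 only through their highest value, whatever their group. The members still varied more among these 9 arrays than probe sets in general. Their median standard deviation was 0.45, against 0.34 over all probe sets kept. limma was fitted to all 32012 probe sets with 5 residual degrees of freedom, with adjustment over all of them. Of the control arrays, 1 of osnox2 and 2 of WT remain, and the single osnox2 array is taken to have the spread of the rest.

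Under drought most members read higher in osnox2 than in WT. The difference was above 0 for 112 of the 150, with a median of 0.28 on the log2 scale, against 49.9% of all 32012 probe sets and a median near 0. At an unadjusted p under 0.05, 37 members (24.7%) were higher and 5 (3.33%) lower, where 6.11% and 5.74% of all probe sets were. All 3 osnox2 arrays lay above all 3 WT arrays for 36 members and below for 5, against 8.26% and 8.21% of all probe sets. Adjusted over all probe sets, limma called 3 members higher and 0 lower (0.356% and 0.234% of all). All members are read from the same 6 leaf samples, so these counts do not rest on 150 separate observations. Without the 10 members below the array median on all 9 arrays, a choice made after seeing the data, 106 of 140 were above 0 with a median of 0.29, and 37 were higher and 4 lower at an unadjusted p under 0.05. Counted by gene, 70 of 95 were above 0, with a median of 0.20, and 32 of the 43 probe sets without a single gene were, with a median of 0.37.

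Each osnox2 drought array carried the difference. Taken from each member's mean over the 6 drought arrays, the median was 0.14, 0.15 and 0.17 on osnox2 replicates 1, 2 and 3 and -0.04, -0.19 and -0.19 on WT replicates 1, 2 and 3. The groups did not overlap in this median, and WT replicate 1 came closest to osnox2. LHY read 8.67, 8.72 and 8.99 on the osnox2 drought arrays and 8.63, 8.43 and 8.13 on the WT ones, and it did not pass the test (adjusted p = 0.412). The 150 probe sets with the largest gaps in the opposite order had a median of -0.07 in this comparison, with 5 higher and 38 lower at an unadjusted p under 0.05. The part of the clock in the difference was not tested.

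**Figure D4:**
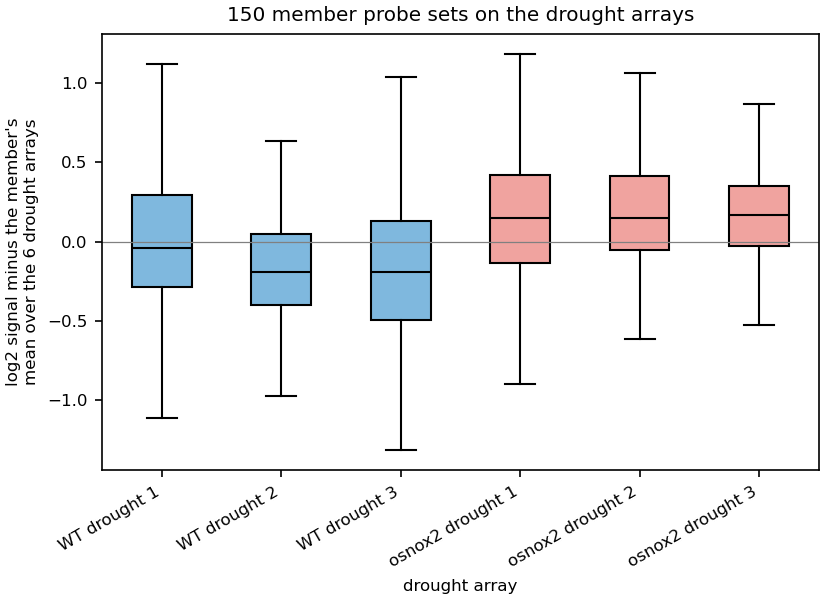
Log2 signal of the 150 members on each of the 6 drought arrays, minus each member's mean over those arrays (boxes are quartiles, lines medians, whiskers reach the last value within 1.5 times the box; points beyond are not drawn). The medians of the osnox2 arrays are 0.14 to 0.17 and those of the WT arrays -0.19 to -0.04, and the boxes overlap.

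The 3 members called higher in droughted osnox2 have no gene name. LOC4327573 (chromosome 1, 35800225 to 35801306) read 9.52, 9.81 and 10.22 in osnox2 and 6.05, 7.55 and 7.99 in WT under drought. It was higher by 2.65 ± 0.44 (SE, n = 3 per group, adjusted p = 0.0468, limma). The low control arrays read 9.24 in osnox2 and 8.76 and 8.61 in WT, between the drought groups. LOC4339759 read 6.93, 6.71 and 7.15 against 4.94, 5.33 and 5.13, higher by 1.80 ± 0.30 (adjusted p = 0.0451, limma), and its other member probe set gave 1.70 ± 0.46 (adjusted p = 0.177). Its 3 WT drought values lay below the array median, so the size of the difference is uncertain: with 64 added to the linear signals it was 0.91 (adjusted p = 0.0357). LOC4331141 (chromosome 2, 35503731 to 35508030) was higher by 0.59 ± 0.10 (adjusted p = 0.0468, limma), at 10.60, 10.39 and 10.43 against 9.94, 9.80 and 9.89. In all 3 genes the drought arrays of the 2 genotypes did not overlap. In this comparison limma called 0 members when osnox2 drought replicate 1, 2 or 3, WT control replicate 2 or 3, or WT drought replicate 2 or 3 was left out (26 to 39 at an unadjusted p under 0.05), and 5 without WT drought replicate 1.

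Named members lay on both sides of 0 without passing the adjusted test. AMT1 read 9.89, 10.31 and 9.89 in droughted osnox2 and 8.83, 9.41 and 9.06 in droughted WT, a difference of 0.93 ± 0.18 (adjusted p = 0.0778, limma). PSY2 read 9.54, 9.19 and 8.73 against 7.80, 7.54 and 8.28, a difference of 1.28 ± 0.25 (adjusted p = 0.0826). For both genes the groups did not overlap. BGLU22 differed by 1.29 ± 0.36 and BGLU31 by 0.54 ± 0.23 in the same direction, while sfr2 differed by -0.57 ± 0.17, LSD1 by -1.31 ± 0.49 and BIPP2C1 by -0.43 ± 0.18 (adjusted p of these 5 from 0.19 to 0.414, limma). Other probe sets of these genes gave smaller differences, of -0.09 ± 0.16 and -0.40 ± 0.23 for sfr2, -0.77 to -0.74 for LSD1 and -0.09 ± 0.09 for BIPP2C1. The LSD1 member probe set read 4.49, 3.69 and 4.28 in droughted osnox2, below the array medians, so the size of its difference is uncertain. The other 2 of the 5 members lower at an unadjusted p under 0.05 were PLP2, for which no size is given because it lay below the array median on all 9 arrays, and a probe set that matches no gene here. FRO1 differed by -0.05 ± 0.34 and PSAG by -0.16 ± 0.11.

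Drought in WT, from 3 drought arrays and control replicates 2 and 3, left more members lower than higher. The median change was -0.20, against -0.03 over all probe sets, and 56 of 150 were above 0. At an unadjusted p under 0.05, 12 members (8.0%) were higher and 28 (18.7%) lower, where 9.49% and 9.40% of all probe sets were. The 150 probe sets with the largest gaps in the opposite order moved the same way, with a median of -0.15, 54 above 0, and 18 higher and 45 lower at that p. After adjustment 4 members rose and 6 fell (1.52% and 1.45% of all). LHY, which is not a member, rose among these arrays, from 7.43 and 7.31 to 8.63, 8.43 and 8.13. Its change was 1.03 ± 0.19 (adjusted p = 0.0299, limma).

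LOC4342135 (chromosome 6, 31896591 to 31899616) rose most. It read 6.93 and 6.65 on the low WT control arrays and 10.84, 10.17 and 9.93 under drought, a change of 3.52 ± 0.31 (adjusted p = 0.00365, limma). The drought values lay between the low control values and those of the 3 high control arrays, at 13.57 to 13.86. sfr2 rose from 7.14 and 7.50 to 8.91, 9.04 and 8.72, by 1.57 ± 0.19 (adjusted p = 0.00862, limma). Its other probe sets changed by values of 1.55 ± 0.26 (adjusted p = 0.0226) and 0.79 ± 0.18 (adjusted p = 0.0613). MRS2-A rose by 0.76 ± 0.15 (adjusted p = 0.0403, limma) and LOC4331944 (chromosome 3, 5132790 to 5137420) by 0.88 ± 0.18 (adjusted p = 0.0397), whose other probe set gave 3.52 ± 0.97 (adjusted p = 0.0936).

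PSY2 was the named member that fell. It read 9.65 and 9.98 on the low WT control arrays and 7.80, 7.54 and 8.28 under drought, a change of -1.94 ± 0.28 (adjusted p = 0.0139, limma). In the list of carotenoid genes, 1 of the 7 probe sets rose and 1 fell with drought in WT, the fall being that of PSY2. LOC4351693 (chromosome 12, 4529355 to 4533542) fell from 9.87 and 8.44 to 7.14, 5.92 and 5.21. The fall was 3.06 ± 0.65 on the log2 scale (adjusted p = 0.0471, limma). Its value of 5.21 lay below the array median of 5.24, so the size of the fall is uncertain. With 64 added to the linear signals the change was -2.22 (adjusted p = 0.0301, limma). LOC4344635 (chromosome 8, 2222298 to 2226207) fell by 1.86 ± 0.34 (adjusted p = 0.0299, limma). LOC4350873 and LOC4331141 fell by smaller amounts, 0.58 ± 0.09 and 0.57 ± 0.11. The groups did not overlap for any of these 5. The last of the 6 that fell matches no gene here. Counts in both directions together went from 10 to 0 without WT control replicate 3 and to 1 without WT control replicate 2. With all 12 arrays, which brings WT control replicate 1 back, LOC4331944, sfr2 and MRS2-A turned direction (-0.68, -0.09 and -0.79) and limma called 0 members (5 at an unadjusted p under 0.05, all lower). The members were chosen as high on that control array, so these turns are no test of drought.

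In osnox2 the change with drought rests on 1 control array, replicate 3. The median over the members was 0.15, against 0.01 over all probe sets, and 93 of 150 were above 0. At an unadjusted p under 0.05, 24 members (16.0%) were higher and 2 (1.33%) lower, where 8.66% and 6.05% of all probe sets were. After adjustment 3 rose and 0 fell (1.07% and 0.375% of all). LOC4342135 rose here too, from 6.52 to 10.04, 10.51 and 10.87, by 3.95 ± 0.39 (adjusted p = 0.00538, limma). LOC4343010 (chromosome 7, 13071823 to 13079183) rose from 6.47 to 9.12, 8.72 and 9.34, by 2.59 ± 0.34 (adjusted p = 0.0152, limma), where its WT change was 0.11 ± 0.27. LOC4331944 rose by 1.33 ± 0.22 (adjusted p = 0.0336). PSY2 changed by a value of 0.52 ± 0.36 (adjusted p = 0.572). With all 12 arrays, which brings back the 2 high osnox2 control arrays, the 3 called members turned direction, to -0.89 for LOC4342135, -1.87 for LOC4343010 and -2.38 for LOC4331944. The rises are therefore relative to osnox2 control replicate 3 alone. The members were chosen as high on the 2 arrays brought back, so the turns are no test of drought.

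**Figure D5:**
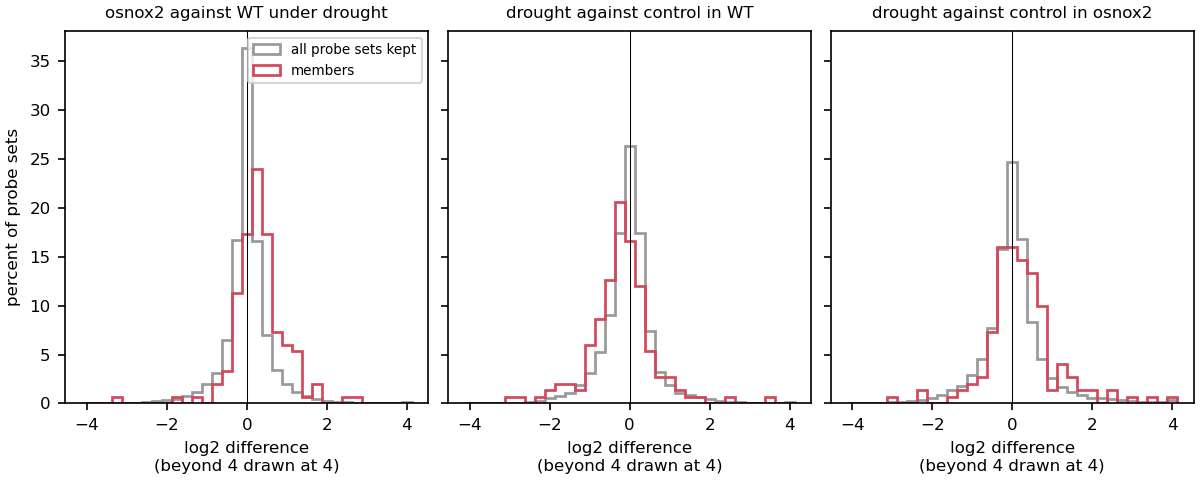
Log2 differences (horizontal axis) of the 150 members (red) and of all 32012 probe sets kept (grey) in 3 comparisons among the 9 arrays, as percent of probe sets in bins of 0.25. The members lie to the right of all probe sets for osnox2 against WT under drought (median 0.28), to the left for drought in WT (median -0.20) and to the right for drought in osnox2 (median 0.15).

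The difference between the drought responses was itself tested, again with 1 osnox2 control array. Its median over the members was 0.42, against 0.02 over all probe sets, and 118 of 150 were above 0. The size depended on the scale: the median was 0.214 with 64 added to the linear signals (116 above 0) and 0.315 after quantile normalization (104 above 0). limma called 0 members in either direction (0.025% and 0% of all), while 20 were higher and 2 lower at an unadjusted p under 0.05, where 5.06% and 2.25% of all probe sets were. No single member's response to drought was therefore shown to differ between the genotypes. Under control conditions, with 1 osnox2 array against 2 WT arrays, limma called 0 members (0.0625% higher and 0.212% lower of all), with 7 higher and 14 lower at an unadjusted p under 0.05 (3.71% and 6.69% of all) and a median of -0.03.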

How the data were processed

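The authors deposited log2 signals of each probe set. The submitters' processing notes name MAS5 without a version. The trimmed mean of the linear signal (all but the lowest and highest 2%) was 497 or 498 on every array, and the values were used as deposited. The 64 control probe sets were left out of the 57258, and probe sets above the array median (taken over the other 57194) on at least 3 arrays were kept. Of these 57194 probe sets 22436 match 1 gene in the platform annotation, named and placed through RefSeq assembly ASM3414082v1, and 95 match several. The rule's names were read against every name of a gene. A linear model of 4 group means was fitted with limma 3.58.1 in R 4.3.3 (intensity trend, two-sided, Benjamini-Hochberg over all probe sets kept, call at an adjusted p under 0.05) to the 9 arrays the rule did not set high, for 5 comparisons. The fit was tested on simulated data. The gaps and counts were computed with pandas 2.3.3 and numpy 2.4.6 under Python 3.11.15, and drawn in matplotlib 3.10.9.

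Genes named are all members with a gene name, the 10 largest gaps, 3 probe sets on each side of the threshold, up to 5 called members per direction and comparison, and clock genes. The 16 gene lists take names by how they start, followed by at most 1 letter and a number. Members, lists and the set of 9 arrays were chosen with earlier results of these data known. Promoter motifs were planned but not analysed here. Alternatives were no filter, an offset of 64, quantile normalization, no intensity trend, all 12 arrays, a replicate block and each array left out.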

Additional observations from a re-analysis of the deposited data

How the results depend on the processing

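With all 12 arrays in the fit, limma called 0 members in each of the 5 comparisons. The 3 arrays that chose the members then enter the control groups and the spread. Whether this accounts for the 0 calls was not tested. At an unadjusted p under 0.05 the genotypes differed in 0 members under drought and 1 under control, drought gave 5 in WT and 64 in osnox2, and the responses differed in 0. Over all 32012 probe sets kept the same counts were 1607, 2196, 3461, 5765 and 1075. All 5 and all 64 were lower. The 3 arrays chosen as high pull the members' drought changes down, so neither these counts nor the turns below test drought. LOC4331944 (-0.68 in WT, -2.38 in osnox2), sfr2 (-0.09), MRS2-A (-0.79), LOC4342135 in osnox2 (-0.89) and LOC4343010 (-1.87) then turned direction with drought. For osnox2 against WT under drought the 3 calls became 1 without a filter and 0 without the intensity trend. For drought in WT the 10 calls became 5 and 2 in the same order, and for drought in osnox2 the 3 became 1 without the trend and 1 with a replicate block. The cause of these moves was not tested. With an offset of 64 or quantile normalization all 5 counts were within 1.5 times.

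Leaving out 1 of the 9 arrays gave 0 to 5 calls for osnox2 against WT under drought (0 without any of osnox2 drought replicates 1, 2 and 3, WT control replicates 2 and 3 and WT drought replicates 2 and 3, 5 without WT drought replicate 1). It gave 0 to 14 for drought in WT (0 without WT control replicate 3, 1 without WT control replicate 2, 2 without WT drought replicate 2, 4 without osnox2 drought replicate 2 or 3, 5 without WT drought replicate 3) and 2 to 6 for drought in osnox2 (6 without WT drought replicate 1). Without osnox2 control replicate 3, the comparisons that use the osnox2 control could not be fitted. The planned promoter motif counts were not run. The median for osnox2 against WT under drought stayed between 0.211 and 0.331, and 106 to 115 members lay above 0. It was 0.177 with an offset of 64. The replicate block left LOC4342135 called in osnox2 but not LOC4343010 (adjusted p = 0.0516) or LOC4331944 (adjusted p = 0.066). Leaving out the 10 members below the array median on all 9 arrays, added after seeing the data, changed no count of calls, and the 110 above it on all 9 had a median difference between the drought responses of 0.27. Deviations of same-numbered drought arrays of the 2 genotypes had correlations of 0.123, -0.0656 and 0.139. Those of differently numbered arrays ran from -0.179 to 0.0626. So few correlations cannot tell whether replicate numbers pair the drought arrays. Of the members 131 stayed with an offset of 64, 142 with quantile normalization, 106 by the difference of means, and 122 to 150 without 1 array, 122 being without WT control replicate 1.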
